A study of Mus musculus with 4 samples.

Results

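Antioxidant, glutathione and pentose phosphate genes were compared across 4 clones of c17.2, a line of immortalised neural stem cells from mouse. The list held 43 genes in 9 enzyme systems, and a probe set was taken for a gene where the array annotation gave it that symbol and no other. This found 50 probe sets of 39 genes, against 8236 genes on the whole array. Signals were high enough to test for 36 of these probe sets, which stand for 32 genes, against 4957 genes tested in all. Where a gene had several probe sets, the one with the highest mean signal stood for it.

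All 4 clones were stable c17.2 derivatives grown under proliferating conditions, with 1 Affymetrix array each. Clone 42 and clone 48 are labelled as stable Nurr1 transfectants; Nurr1, encoded by Nr4a2, is a nuclear receptor of dopamine neuron development. The controls puroB and puroD carry the puromycin resistance vector alone; the promoter that drives Nurr1 in the other two, and whether they too carry puromycin resistance, is not given in the labels. The labels match puroB to clone 42, and puroD to clone 48, by proliferation rate. The design text repeats the number 42 in the second pair beside the abbreviation c48, and the sample descriptions, which name clone 48 there, were followed. Thus each group holds 2 clones and the comparison holds 2 pairs. Each line is a single clone, and a difference between clones cannot be told apart from an effect of the transgene in any 1 pair. The labels do not say whether the arrays stand for more than 1 culture of a clone. With 1 array per clone, the spread between clones cannot be told apart from that between cultures or arrays. The p-values rest on this joint spread, estimated mostly over all probe sets.

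Cells dispose of superoxide through superoxide dismutases, which make hydrogen peroxide, and of hydrogen peroxide through catalase, glutathione peroxidases and peroxiredoxins. Glutathione and thioredoxin supply the electrons for these peroxidases, and both are reduced again with NADPH, much of it made by the pentose phosphate pathway. The transcription factor Nrf2, encoded by Nfe2l2, is held down by Keap1 and drives many of these genes through the antioxidant response element. In midbrain dopamine neurons this defence is of interest because dopamine itself oxidises.

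To show what the Nrf2 link looks like in the members' DNA, the 250 bases before each annotated start were searched on both strands for the element's core, TGACNNNGC, in RefSeq sequence of the mouse build GRCm38.p6. Promoter entries were found for 37 of the 43 genes. The core stood in 9 of their 48 windows (18.8%), against 10.2% of 32851 windows of all genes. Those 9 windows belonged to 9 genes, of which 6 had a tested probe set. These 6 stretches are written 5′ to 3′ on the gene's strand with the core in capitals, and a core on the opposite strand appears as its reverse complement.
Sod1, chr16:90220690-90220730, plus strand: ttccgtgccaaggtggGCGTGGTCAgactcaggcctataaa
Txnrd1, chr10:82859098-82859138, plus strand: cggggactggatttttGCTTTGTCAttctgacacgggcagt
Gclm, chr3:122245407-122245447, plus strand: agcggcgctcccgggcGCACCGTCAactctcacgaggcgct
Gstm5, chr3:107895796-107895836, plus strand: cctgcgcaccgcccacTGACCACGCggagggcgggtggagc
Nfe2l2, chr2:75704879-75704913, minus strand: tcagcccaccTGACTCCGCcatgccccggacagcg
Mt2, chr8:94172523-94172563, plus strand: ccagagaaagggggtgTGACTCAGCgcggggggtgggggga

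The core of Mt2 also contains TGACTCA, the letters of an AP-1 site, so that both motifs overlap there. A match describes letters only, and the arrays did not measure binding.

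Depth in the sense of counts does not exist on these arrays, and the number of arrays limits the precision. The trimmed mean of the deposited signals lay between 500.4 and 500.5 on all 4 arrays, their medians between 125.6 and 160.1, and the correlation between arrays between 0.919 and 0.950 over the tested probe sets. Nr4a2 did not follow the labels: its signal was 320.1 in clone 42 and 206 in clone 48, while puroB read 485 and puroD 254 (log2 difference -0.45 ± 0.30, SE, limma, adjusted p = 0.871), and the difference was 0.016 without puroB. Its second probe set, also tested, read 188 and 113.5 in the Nurr1-labelled clones and 371.9 and 213 in the controls, lower in both pairs (-0.95 ± 0.34, limma, adjusted p = 0.453). These probe sets need not detect a transgene, and the clones are called Nurr1-labelled from here on.

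Markers of the labelled cell type were mixed. Nes, the intermediate filament of neural stem cells, read 3029.8 to 3719.8, but of 9 progenitor markers measured 4 were lower and 2 higher in the Nurr1-labelled clone of both pairs. Fabp7, a fatty acid binding protein of radial glia, read 564.5 and 157 in the Nurr1-labelled clones and 1293 and 1539 in the controls (-2.24 ± 0.40, limma, adjusted p = 0.0503). The sum of 8 neuron markers, all measured, was 6913 in clone 42 and 5488 in clone 48, while puroB had 3391 and puroD 3361. Most of each sum was Tubb3, a neuronal tubulin, at 5688, 4633, 2703 and 2704 in that order. Of the 8 markers 3 were higher and 2, Map2 and Dcx, lower in the Nurr1-labelled clone of both pairs. The dimmer probe set of Tubb3 was called (1.79 ± 0.31, limma, adjusted p = 0.049), its brighter one was not (0.92 ± 0.31, adjusted p = 0.371), and Snap25 was at most 4.3. The sum of 8 microglia and macrophage markers was 598 to 959.5 over the clones and that of 5 oligodendrocyte markers 244.5 to 402. In these lists Ptprc and Mog were near 0 (at most 14.1 and 7.6), while Cd14 read 170.7 to 329.8 and Mbp up to 175.8. Of 16 markers of S phase and mitosis 15 were measured, and their summed signal was 17001 in clone 42, 31740 in puroB, 34595 in clone 48 and 34005 in puroD. Of 8 fibroblast and mesenchymal markers, all measured, the sum was 8977, 3044, 6098 and 4180 in the same order. Most of it in clone 42 came from 2 collagen genes, Col3a1 (5020) and Col1a2 (2691). A second probe set of Col1a2 differed less, at 1154, 1087, 883 and 971 in the same order. Of the 8 markers, 2 were higher and 1 lower in the Nurr1-labelled clone of both pairs. The actin 3' to 5' ratio, a sign of RNA quality, was 1.68 in clone 42 and 1.51 in puroB, and it was higher in both clones of the second pair, up to 2.41 in clone 48. Whether these differences have a part in any result below was not tested, and more RNA per cell and more cells of one kind cannot be told apart in such samples.

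None of the 32 tested genes differed between Nurr1-labelled and control clones after adjustment over all 6419 tested probe sets (limma with the matched pair as a block, 0 called at an adjusted p of 0.05). Over all tested probe sets 0.109% were called, 7 in number. At an unadjusted p of 0.05, 1 of the 32 passed, Taldo1, against 6.82% of all genes. The median log2 difference over the members was -0.09 for clone 42 against puroB, 0.02 for clone 48 against puroD, and -0.03 for the mean of both. The corresponding medians over all 4957 genes were -0.07, -0.00 and -0.02. Scaling the arrays to their medians moved the median of all genes by 0.17, and the members' median to 0.14 with it. The 95% interval of a member's difference reached 0.61 to 0.81 to either side on the log2 scale, with a median of 0.67 or 1.59-fold. After adjustment over all probe sets larger differences than these also went without a call. An exact permutation test of 2 clones against 2 that ignores the pairs cannot give a two-sided p under 0.333. Keeping the pairs allows fewer arrangements, so that the limit is higher still.

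**Figure D1:**
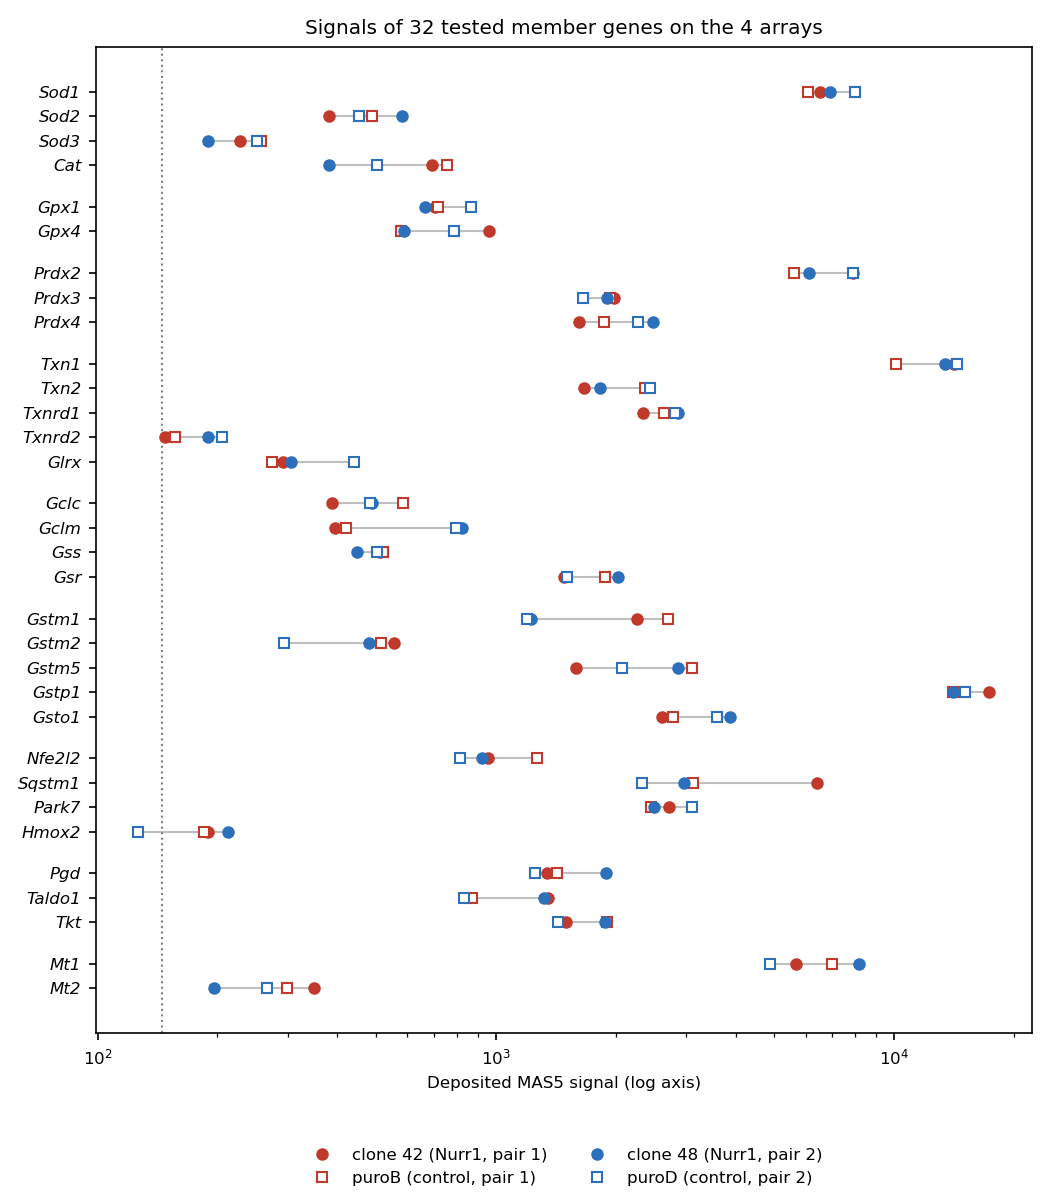
Deposited MAS5 signal of the 32 tested genes (log axis) in clone 42 and clone 48 (filled circles) and puroB and puroD (open squares), with red for the first pair and blue for the second. Blocks are enzyme systems, the dotted line marks the signal of 145.05 used as a filter, and a grey line joins the lowest and highest clone; Sqstm1, Gstm1 and Gclm have the longest lines.

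For most of these genes the 4 clones lay within 2-fold of each other. The highest of the 4 arrays exceeded the lowest by 2-fold or more for 3 of 32 genes (9.38%), Sqstm1, Gstm1 and Gclm, against 23.1% of all genes. The median ratio of the highest to the lowest array was 1.51 for the members and 1.59 for all genes. The members' median absolute log2 difference was 0.358 in the second pair and 0.375 between the controls, above the 0.285 and 0.304 of all genes. In the first pair and between the Nurr1-labelled clones it was 0.215 and 0.325, below the 0.334 and 0.373 of all genes. The groups of 2 clones did not overlap for 5 of the 32 genes (15.6%), against 30.6% of all genes: Taldo1 and Hmox2 were higher in both Nurr1-labelled clones, and Gpx1, Sod3 and Txn2 lower. Of these, Gpx1 turned higher in clone 42 than in puroB after scaling to the median (0.09) and after quantile normalization (0.07), and the other 4 kept both signs.

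The pair differences often had opposite signs. The sign differed between pairs for 21 of 32 genes (65.6%), against 49.3% of all genes, and 5 genes were higher and 6 lower in the Nurr1-labelled clone of both pairs. This share depended on scaling: 16 genes had opposite signs after scaling to the median and 17 after quantile normalization, where 46.6% and 49.1% of all genes did. Of the 21, 13 were lower in clone 42 than in puroB and higher in clone 48 than in puroD. The correlation of the pair differences over the 32 genes was -0.15, against 0.06 over all genes; genes share the arrays and are not independent points.

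**Figure D2:**
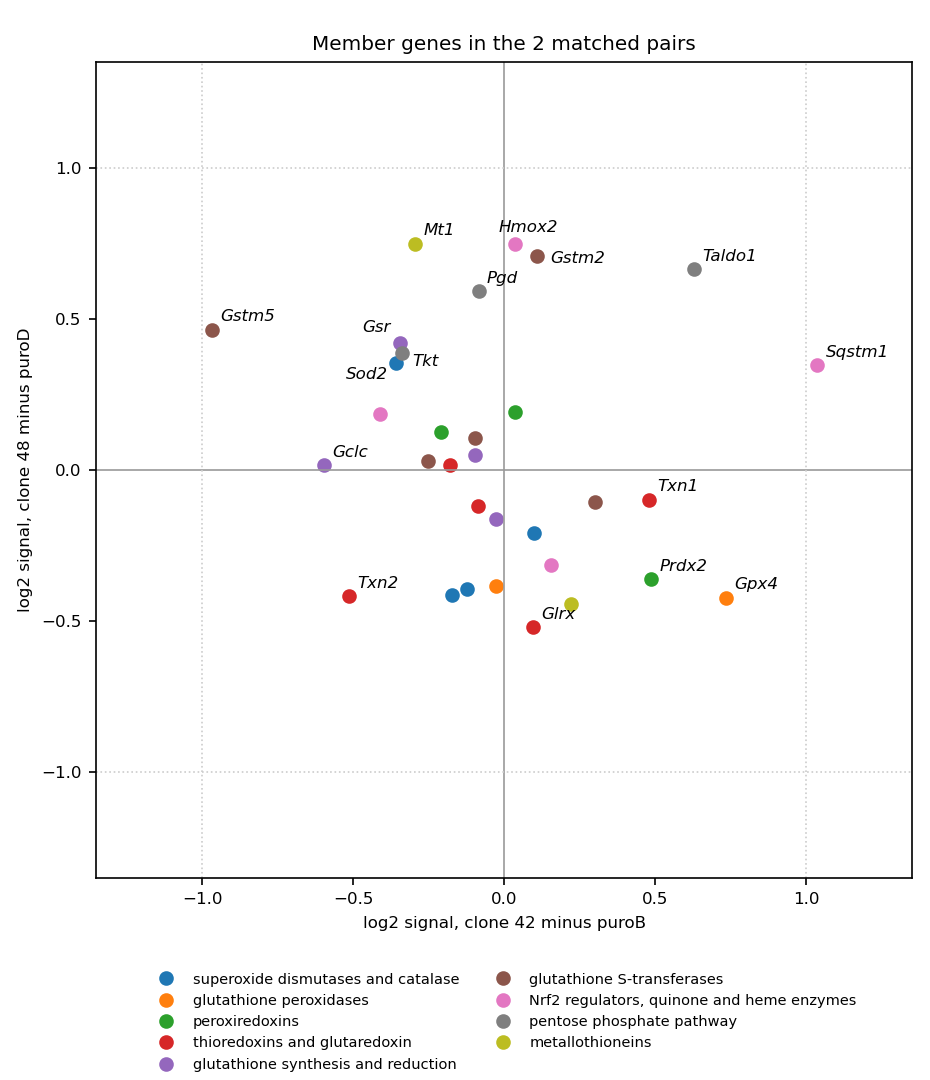
Log2 difference of clone 42 from puroB (horizontal) and of clone 48 from puroD (vertical) for the 32 tested genes, coloured by enzyme system, with dotted lines at 2-fold. Sqstm1 lies past 2-fold in the first pair, none does in the second, and 21 genes lie in the upper left or lower right.

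In the pentose phosphate pathway, Taldo1 differed in the same direction and by nearly the same amount in both pairs. Taldo1 encodes transaldolase, which moves 3-carbon units between sugar phosphates in the non-oxidative branch. Its signal was 1349.8 in clone 42 and 1324 in clone 48, while puroB read 872 and puroD 834. Both Nurr1-labelled clones lay above both controls, and the clones of each group were close to each other. The neuron marker sum, made up mostly of Tubb3, was also higher in both Nurr1-labelled clones. Its part in the difference of Taldo1 and in that of Txn2 was not tested. On the log2 scale clone 42 exceeded puroB by 0.63 and clone 48 exceeded puroD by 0.67, or 1.55-fold and 1.59-fold. The mean was 0.65 ± 0.30 (SE, n = 2 pairs; limma, adjusted p = 0.665), with a 95% interval of 0.01 to 1.29. Its mean was 0.65 after quantile normalization, 0.82 after scaling to the median, and 0.62 to 0.68 with a clone left out. The other settings could not change the mean of a gene with 1 probe set that is bright on all 4 arrays. Taldo1 was the only member past 1.5-fold in the same direction in both pairs, against 3.87% of all genes.

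Pgd and Tkt did not share this pattern. Pgd, 6-phosphogluconate dehydrogenase, makes NADPH in the oxidative branch, and its signal was 1344 in clone 42 and 1426 in puroB, against 1889.7 in clone 48 and 1254 in puroD. Clone 48 stood above the other 3 clones, and the groups overlapped (0.25 ± 0.32, adjusted p = 0.970, limma). Tkt, transketolase, which moves 2-carbon units and works beside transaldolase, read 1505 in clone 42 and 1904 in puroB, and 1877 in clone 48 and 1435 in puroD. Here puroB and clone 48 were the high clones, and the pair differences of -0.34 and 0.39 nearly cancelled. All 3 genes were higher in clone 48 than in puroD under each of the 3 scalings. No probe set was named with G6pdx, the enzyme at the entry of the pathway, and it was not analysed here.

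Among the tested genes, each read from its brightest probe set, Sqstm1 gave the largest difference within a pair. Its product p62 is an autophagy receptor that binds Keap1 and thereby releases Nrf2. The signal was 6418 in clone 42, 3129.6 in puroB, 2968 in clone 48 and 2333 in puroD. Clone 42 stood above the other 3, and clone 48 lay below puroB, so the groups overlapped. The first pair differed by 1.04, or 2.05-fold, and the second by 0.35 (log2), with a mean of 0.69 ± 0.32 (SE, n = 2 pairs; limma, adjusted p = 0.678). Without clone 42 the mean was 0.14, and without clone 48 it was 1.25. With 1 probe set per gene, Sqstm1 was the only tested member past 2-fold in the first pair, against 8.31% of all tested genes. No tested member was past 2-fold in the second, against 4.66%. Clone 42 was also the clone with the low sum of S phase and mitosis markers given above. It had the high sum of fibroblast markers too, which came mostly from 2 collagen genes.

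The 250 bases before the annotated starts of these 2 genes, which had the highest mean differences among the members, hold no core of the antioxidant response element. That says only that those letters are not in this stretch of GRCm38.p6, shown here in lower case throughout because no match was found to capitalise.
Taldo1, chr7:141391910-141392159, plus strand: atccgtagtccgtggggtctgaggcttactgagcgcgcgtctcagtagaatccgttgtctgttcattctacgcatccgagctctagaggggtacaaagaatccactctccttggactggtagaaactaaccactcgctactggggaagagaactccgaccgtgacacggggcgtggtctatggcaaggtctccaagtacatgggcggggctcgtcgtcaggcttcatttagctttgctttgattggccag
Sqstm1, chr11:50210821-50211070, minus strand: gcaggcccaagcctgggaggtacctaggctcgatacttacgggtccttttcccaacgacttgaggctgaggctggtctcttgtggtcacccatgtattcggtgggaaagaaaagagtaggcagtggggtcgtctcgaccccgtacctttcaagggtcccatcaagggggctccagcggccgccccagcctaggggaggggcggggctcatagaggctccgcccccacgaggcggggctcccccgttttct

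The other Nrf2 regulators that could be tested differed in opposite directions in the 2 pairs. Nfe2l2 itself read 954 in clone 42, 1269 in puroB, 926 in clone 48 and 814 in puroD. The control clones were its highest and its lowest, with both Nurr1-labelled clones between them. Park7, which encodes DJ-1, a redox-sensitive protein mutated in familial Parkinson disease, read 2729.5, 2454, 2499 and 3108 in the same order, again with the controls at both ends. Hmox2, the constitutive heme oxygenase, read 189.6, 185, 212 and 127. Both Nurr1-labelled clones exceeded both controls, but clone 42 exceeded puroB by 1.03-fold only, while clone 48 exceeded puroD by 1.68-fold (0.39 ± 0.38, adjusted p = 0.933, limma). Its mean was 0.12 without puroD and 0.66 without puroB. Keap1 was dim, at 38.2, 8.6, 73.4 and 51.8, and was not tested. Nqo1, a quinone reductase used as a readout of Nrf2, stayed at or below 28.6 on both of its probe sets, below the floor of 40.3 on every array.

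In the thioredoxin system, Txn2 was the tested member with the most negative mean difference. Txn2 encodes the mitochondrial thioredoxin, a small protein that reduces disulfides. Its signal was 1662 in clone 42 and 1829 in clone 48, while puroB read 2371 and puroD 2444. Both Nurr1-labelled clones lay below both controls. The pair differences were -0.51 and -0.42, with a mean of -0.47 ± 0.31 (SE, n = 2 pairs; limma, adjusted p = 0.870). The mean was -0.49 after quantile normalization, -0.30 after scaling to the median, and -0.53 to -0.40 with a clone left out. As with Taldo1, the other settings could not change it.

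The cytosolic thioredoxin behaved otherwise. Txn1 read 14129 in clone 42, 10124 in puroB, 13456 in clone 48 and 14396 in puroD, with puroB the lowest. Its second-pair difference of -0.10 turned to 0.12 after scaling to the median and to 0.15 after quantile normalization. The 2 thioredoxin reductases differed little by pair: Txnrd1, the cytosolic enzyme, read 2339 to 2860.0 over the 4 clones, and Txnrd2, the mitochondrial one, read 147.6 to 205. Glrx, glutaredoxin, which reduces mixed disulfides with glutathione, read 293 in clone 42, 274 in puroB, 307 in clone 48 and 439.9 in puroD. Only puroD stood apart for Glrx. All 5 genes of the system were higher in puroD than in puroB under each of the 3 scalings.

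In glutathione synthesis, Gclm differed between the matched pairs. Gclm encodes the modifier subunit of glutamate-cysteine ligase, which sets the rate of synthesis. Its signal was 394 in clone 42 and 422 in puroB, against 823 in clone 48 and 795 in puroD. Both clones of the second pair were higher than both of the first, and within each pair the difference was small (-0.10 and 0.05). Clone 48 exceeded clone 42 by 2.09-fold and puroD exceeded puroB by 1.89-fold. Gclc, the catalytic subunit, did not follow it: 388 in clone 42, 586 in puroB, 488 in clone 48 and 482 in puroD. There puroB was high and clone 42 low, a first-pair difference of -0.60, while the second pair differed by 0.02.

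The later steps differed less. Gss, glutathione synthetase, read 449 to 521 over the 4 clones. Gsr, which reduces oxidised glutathione with NADPH, read 1483 in clone 42, 1885 in puroB, 2024 in clone 48 and 1511 in puroD. As with Tkt, puroB and clone 48 were the high clones, and the pair differences were -0.35 and 0.42. Gsr, Tkt and Sod2 lay next to each other in the plot of pair differences.

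**Figure D3:**
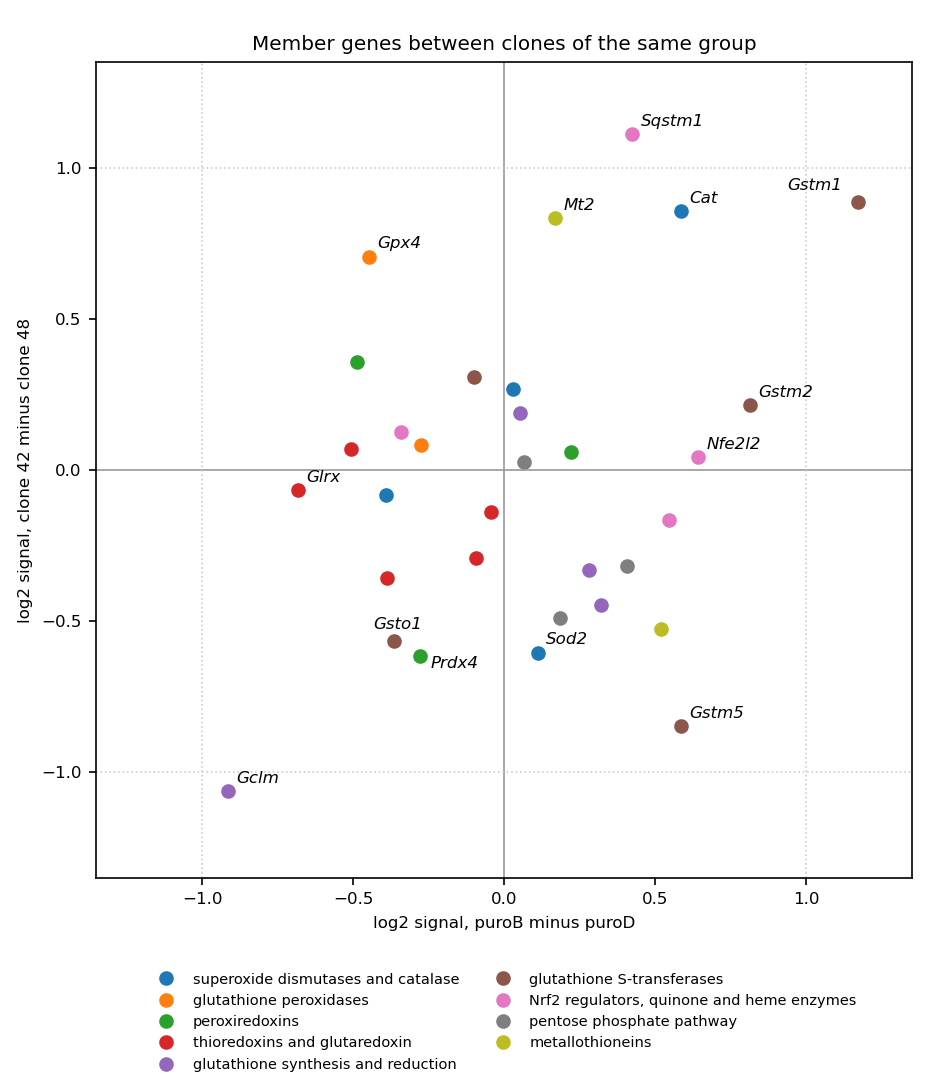
Log2 difference of puroB from puroD (horizontal) and of clone 42 from clone 48 (vertical) for the 32 tested genes, coloured by enzyme system, with dotted lines at 2-fold. Gstm1 and Cat lie at the upper right, high in both clones of the first pair, and Gclm lies at the lower left, high in both clones of the second.

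Among the glutathione S-transferases, which join glutathione to reactive compounds, the mu class varied most. Gstm1 read 2269 in clone 42 and 2702 in puroB, against 1227 in clone 48 and 1201 in puroD. Both clones of the first pair were higher than both of the second, the reverse of Gclm. Its second probe set read 493 in clone 42, 434 in puroB, 328 in clone 48 and 347 in puroD, the same order of pairs with a smaller gap. Between the control clones, Gstm1 was the only tested member past 2-fold (2.25-fold), against 5.73% of all tested genes. Between the Nurr1-labelled clones, 2 members were past 2-fold, Sqstm1 (2.16-fold, higher in clone 42) and Gclm, against 10.4% of all genes. The correlation of these 2 between-clone differences over the members was 0.26, and 0.17 over all genes. The actin 3' to 5' ratio also separated the pairs, and its part in these differences was not tested.

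Gstm5 differed in opposite directions. Its brightest probe set read 1591 in clone 42, 3112 in puroB, 2865 in clone 48 and 2075 in puroD. Clone 42 was the lowest and puroB the highest, and the pair differences were -0.97 and 0.47. A second tested probe set of the gene gave -1.10 (2.14-fold lower in clone 42) and 0.32, from 182 in clone 42, 389 in puroB, 313 in clone 48 and 251 in puroD. The mean of -0.25 ± 0.36 (adjusted p = 0.977, limma) became 0.17 without clone 42 and 0.04 without puroB.

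Gstm2 had the largest mean difference of the 5 tested transferases, and it rested on puroD. It read 557 in clone 42, 516 in puroB, 479.7 in clone 48 and 294 in puroD, with puroD alone at the bottom. The mean of 0.41 ± 0.30 (adjusted p = 0.894, limma) became 0.0019 without puroD and 0.82 without puroB. The mu-class genes are near-identical in parts of their sequence, and several of these probe sets carry a suffix letter that Affymetrix gave to sets chosen under relaxed rules or able to bind related transcripts, so their signals may be shared. The tested probe set of Gstm2 carries such a letter. Its other probe set, without one, read 25.1 in clone 42, 39.8 in puroB, 35.6 in clone 48 and 51.4 in puroD. That set was at the floor on 3 arrays and was not tested. Gstp1, the pi-class enzyme, read 14037 to 17364, and Gsto1, the omega-class enzyme, 2611 to 3868 with both clones of the second pair above both of the first. Gsta4, Gstt1, Gstt2 and the microsomal Mgst1 were at or below the floor on every array, with a highest signal of 29.1 among them.

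Among the superoxide dismutases and catalase, only Sod3 and the dimmer probe set of Cat had groups that did not overlap. Sod1, the cytosolic copper and zinc enzyme, read 6534 in clone 42, 6095 in puroB, 6916 in clone 48 and 7997 in puroD. Its controls were the lowest and the highest of the 4. The pair differences of Sod1, 0.10 and -0.21, had opposite signs in the main scaling only. They were 0.22 and 0.007 after scaling to the median, and -0.12 and -0.14 after quantile normalization. Sod2, the mitochondrial manganese enzyme, read 382, 489.7, 580.2 and 454 in the same order of clones. Its pair differences (-0.36 and 0.36) were opposite under each scaling. Sod3, the secreted enzyme, read 228 in clone 42 and 189 in clone 48, and puroB and puroD read 257 and 252. Both Nurr1-labelled clones were lower there, with pair differences of -0.17 and -0.41, a mean of -0.29 ± 0.33 (adjusted p = 0.965, limma).

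The 2 probe sets of Cat, catalase, disagreed. The brighter read 693 in clone 42, 754 in puroB, 382 in clone 48 and 502 in puroD, with mean difference -0.26. The other read 205, 199.9, 240.1 and 179 in the same order, with mean difference 0.23 and both Nurr1-labelled clones above both controls. The brighter was high in both clones of the first pair, the dimmer was highest in clone 48, and no order of the clones can be given for the gene.

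The peroxidases differed by single clones. Gpx4, the glutathione peroxidase that reduces lipid peroxides and protects cells from ferroptosis, read 959 in clone 42, 577 in puroB, 588 in clone 48 and 787 in puroD. Clone 42 was the highest, and the pair differences of 0.73 and -0.42 had opposite signs. Gpx1, the cytosolic form, read 703 and 665 in clone 42 and clone 48, against 717 and 868 in puroB and puroD. Both Nurr1-labelled clones were lower, but clone 42 by 1.02-fold only.

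Peroxiredoxins reduce peroxides with electrons from thioredoxin. Prdx2, a cytosolic form, read 7867 in clone 42, 5615 in puroB, 6134 in clone 48 and 7876 in puroD, on a probe set with a suffix for related transcripts. Clone 42 and puroD were equally high, so the pair differences were 0.49 and -0.36. The probe set without a suffix gave 0.11 and 0.13. Prdx3, the mitochondrial form, read 1659 to 1979 and Prdx4, that of the endoplasmic reticulum, 1619.9 to 2479.9, the latter with both clones of the second pair above both of the first. Prdx1 shared both of its probe sets with another annotated symbol and was not tested as a gene; no probe set was named with Prdx5 or Prdx6.

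Metallothioneins, small cysteine-rich proteins that bind zinc and copper, differed in opposite directions from each other. Mt1 read 5689 in clone 42, 6975 in puroB, 8186 in clone 48 and 4868 in puroD, with the second pair holding the highest and the lowest clone. Mt2 read 349, 299, 196 and 266 in the same order. Clone 48 was thus the highest for Mt1 and the lowest for Mt2, and pair differences were -0.29 and 0.75 for Mt1 and 0.22 and -0.44 for Mt2. The metal response element, which both genes are known to use, was searched as TGCACNC or TGCGCNC on both strands. It matched 1 time before the start of Mt1 and 3 times before that of Mt2, and stood in 27.1% of member windows and 21.4% of all windows.

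**Figure D4:**
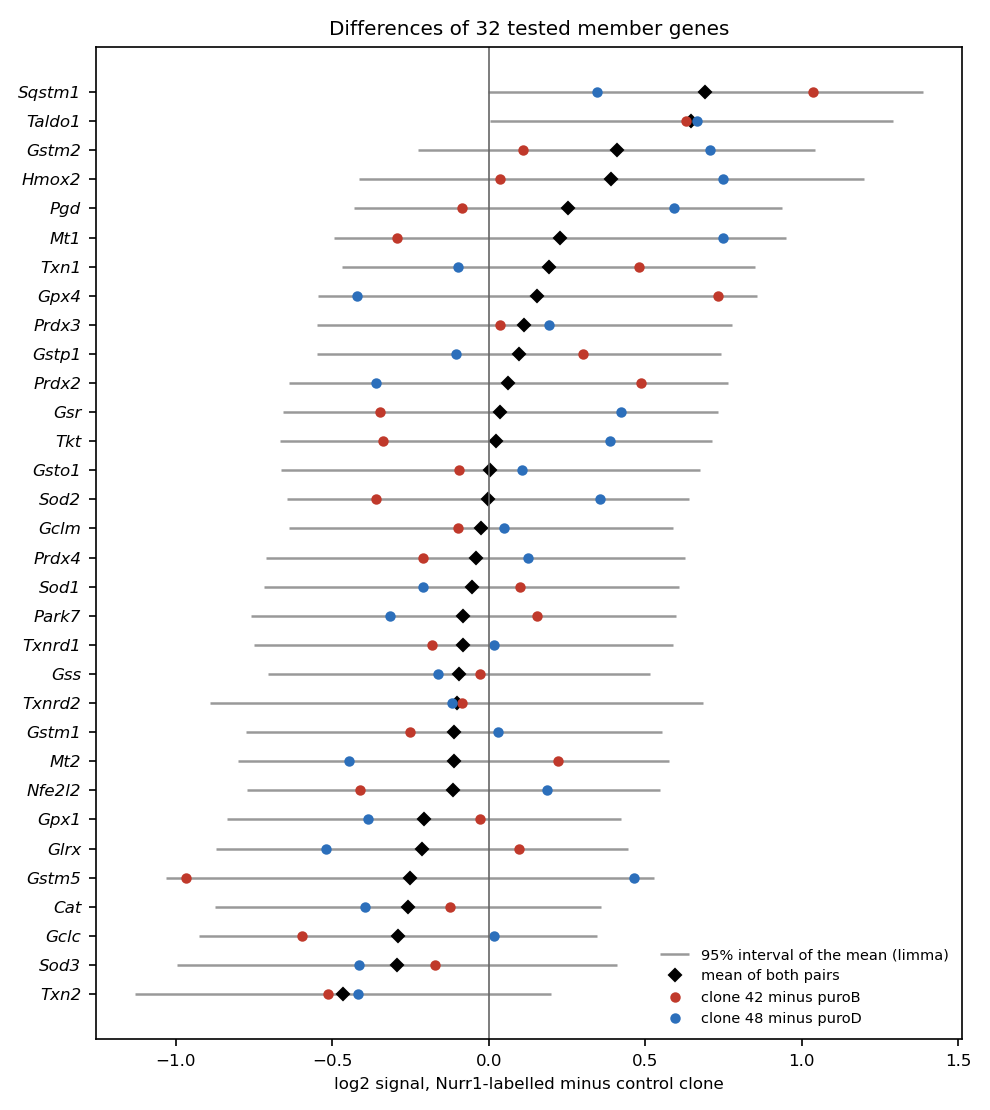
Mean log2 difference of the Nurr1-labelled from the control clones for the 32 tested genes (points), with 95% intervals from the limma fit (bars) and the differences of both pairs as separate marks. The interval of Taldo1, 0.01 to 1.29, begins just above 0, and the other 31 include 0.

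Other genes of the same pathways, taken from a separate list, gave no call either. Of 41 that could be tested, 0 passed at an adjusted p of 0.05 in limma, against 0.109% of all probe sets. At an unadjusted p of 0.05, 2 of the 41 passed, against 6.82% of all genes. The median mean difference of the 41 was -0.04, against -0.02 over all genes. Msrb1, a selenoprotein that repairs oxidised methionine, read 1019 in clone 42 and 917 in clone 48, whereas puroB read 535 and puroD 499.9. Abcc1, a pump that exports glutathione conjugates, read 142.5 and 96.6 in the Nurr1-labelled clones, against 345.5 and 288 in the controls. Neither gene's groups overlapped. The mean difference was 0.90 ± 0.29 for Msrb1 (adjusted p = 0.324, limma) and -1.43 ± 0.35 for Abcc1 (adjusted p = 0.145, limma).

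The remaining related genes with the same sign in both pairs differed less. Of the NADPH and ribose enzymes, Me1, malic enzyme, had pair differences of -0.89 and -0.34, Rpe, which interconverts pentose phosphates, -0.78 and -0.31, and Prps1, which activates ribose phosphate, -0.57 and -0.30. All 3 were lower in the Nurr1-labelled clone of each pair. On the other side, Idh1, the cytosolic isocitrate dehydrogenase that makes NADPH, had 0.29 and 0.17, H6pd, its counterpart for glucose phosphate in the endoplasmic reticulum, 0.16 and 0.31, and Pgls, the pathway's lactonase, 0.15 and 0.22. None of these 6 had an unadjusted p at or under 0.05 in limma.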

How the data were processed

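Biotin-labelled RNA of 4 clones had been hybridised to Affymetrix mouse arrays, 1 per clone. The authors deposited a linear intensity per probe set; MAS5 is named in the submitters' processing notes, and no version is given in the sources used here. Probe sets were named from GEO's platform annotation (10814 with 1 symbol, 396 with several, 1193 with none, besides 66 array controls).

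Here each array was rescaled to a trimmed mean of 500 (2% from each end), values under the 30th percentile (40.3) were set to it, and log2 was taken. Signals printed are those deposited. The floor means that a difference against a dim array understates the ratio. Probe sets above the median (145.05) on at least 2 arrays were fitted with limma 3.58.1 (R 4.3.3), lmFit and eBayes with an intensity trend, the matched pair as a block, and Benjamini-Hochberg adjustment over 6419 probe sets. The pairing comes from the labels. The fit leaves 1 residual degree of freedom, to which eBayes added 13.1 from all probe sets. The p-values, SE and intervals therefore rest mostly on the pooled spread. The procedure was tested on simulated data, with planted differences larger and a spread smaller than those of the members. That test does not show whether differences of the members' size would be called. Differences between 2 single arrays are descriptions. Motifs were searched with Python 3.11.15, and figures drawn with matplotlib 3.10.9.

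Named were Nr4a2, every member with its tested probe sets of 1 symbol, and of the related genes those passing the test or the 4 per direction with the largest smaller-of-both-pairs difference. Only some of the members' untested probe sets were named. The members and lists were chosen with earlier results of these data known. The alternatives tried were no block, other floors, filters and scalings, no trend, averaged probe sets, each clone left out (without the block), and, chosen after seeing the data, probe sets without a suffix letter.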

Additional observations from a re-analysis of the deposited data

How the results depend on the processing

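No member was called by limma in the main analysis or under any of 14 other settings, where the lowest adjusted p of a member ranged from 0.135 (without clone 48) to 1.00. The count of all probe sets called, 7, was less stable: it was 0 with no replicate block, 0 with no floor, 17 with the floor at the median, 0 with no filter on low signals, 49 with all 4 arrays above the median, 51 after scaling to the median, 0 after quantile normalization, and 7 with no intensity trend. Leaving out 1 clone gave 0 to 51 calls (17 without clone 42, 51 without clone 48, 0 without puroB, 2 without puroD). The cause was not tested. The members' median of -0.03 was 0.14 after scaling to the median, which shifted all genes, and -0.063 to 0.070 with a clone left out (0.070 without clone 42). Gstm5 ranged from -0.68 to 0.17 with a clone left out (0.17 without clone 42, 0.041 without puroB), and Nr4a2 from -0.92 to 0.016 (0.016 without puroB). Taldo1, Sqstm1, Txn2, Gstm2, Hmox2, Sod3, Gclc, Msrb1, Abcc1 and Me1 kept their sign under all settings run for them, but not their size with a clone left out: Gstm2 ranged from 0.0019 to 0.82, Hmox2 from 0.12 to 0.66, Sqstm1 from 0.14 to 1.25, Sod3 from -0.43 to -0.16 and Gclc from -0.46 to -0.12. Dropping the block, the trend or the floor, or changing the filter, left the means of those genes unchanged. Their signs were therefore put to the test mainly by the scalings and the clones left out. Averaging probe sets gave no probe-set count. The block removed no member call, since there was none. Detection calls were not used here; the 15 bacterial control probe sets reached 62.7, so the dim members may be at background.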

Other observations

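Some probe sets outside the test gave single-clone signals. Gpx3, the secreted glutathione peroxidase, read 132 in puroB and 22.5 to 26.4 in the other 3 clones. A further probe set of Gstm5 read 439 in puroD and 52.5 to 64.5 in the others, unlike the 2 tested probe sets of that gene. The dimmer probe set of Gss read 122 in clone 42 and 60 in clone 48, while puroB read 239 and puroD 134, while the tested one lay between 449 and 521. The 2 probe sets on which Prdx1 shares its name with another symbol read 14710 and 11882 in clone 42, 11355 and 8419 in puroB, 12253 and 10192 in clone 48, and 12909 and 10952 in puroD. Clone 42 was above puroB and clone 48 below puroD on both.

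Among the related genes, several were high in 1 pair or in 1 clone, as Gclm and Gstm1 were. Hmox1, the inducible heme oxygenase, read 1608 in clone 42, 1391 in puroB, 587 in clone 48 and 733 in puroD. Idh1 read 785, 641 and 315, 280.1 in the same order, also high in both clones of the first pair. Mt3, the brain metallothionein, read 1447, 671, 1291 and 1488, with puroB alone low, and its pair differences were 1.11 and -0.20. These are 1 array each and were picked after their values were seen.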
